A study of Mus musculus with 12 samples.

Results

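The Schlafen genes encode a family of interferon-inducible proteins of immune cells, and 7 of them, *Slfn1*, *Slfn2*, *Slfn3*, *Slfn4*, *Slfn5*, *Slfn8* and *Slfn9*, were followed here across WT and KpCKO macrophages. They stand among 32301 genes or transcripts on the array, 18217 of them with a gene symbol. The members were chosen by measured values: the family was picked after its levels over genotype and stimulus on these same arrays had been seen. Its levels and differences are therefore given as a description. No p-value is printed for a member, and counts of members past a test stand beside the share of all genes past the same test, with nothing read from them. The 7 genes were read by 8 array probes, *Slfn5* by 2 and each other member by 1.

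Bone marrow-derived macrophages (BMDMs) are macrophages grown from bone marrow in M-CSF, here for 7 days. The mice were C57BL/6 and 8 weeks old. WT mice were compared with KpCKO mice, which are *Keap1* flox/flox with Cre expressed from the lysozyme M locus (*LysM*-Cre). Keap1 is the adaptor that directs the transcription factor Nrf2 to degradation, so Nrf2 accumulates where it is lost. Cells of each genotype were left untreated (Con), given LPS plus IFNγ for 6 h (M1), or given IL-4 for 6 h (M2). Culture 1 came from 1 male WT and 1 male KpCKO mouse, and culture 2 from 1 female of each genotype, so each of the 6 groups has 2 arrays. The deletion is limited to cells in which lysozyme M has been active, and whether the WT mice carried the Cre is not given in the sources used here. With 2 arrays a group, and sex tied to the culture, the precision is limited and sex cannot be told apart from culture. Each slide of 4 arrays held all arrays of 1 state, so slide and stimulus cannot be told apart, while the genotypes were compared within a slide.

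Mouse Schlafen proteins share an amino-terminal Schlafen core. *Slfn1* and *Slfn2* encode the short group I proteins, *Slfn3* and *Slfn4* the intermediate group II proteins, and *Slfn5*, *Slfn8* and *Slfn9* the long group III proteins, which carry a helicase-like part at their carboxyl end. The genes lie side by side on mouse chromosome 11. Type I interferon, signalling through Jak kinases, induces many of them through the interferon-stimulated response element (ISRE), and macrophages are known to raise several of them when they meet bacterial products. Levels are given below on a log2 scale as the background-subtracted signal of a probe less the array's 75th percentile, so that 0 is a bright probe. Levels of different probes cannot be set against each other, and in RNA of a whole culture fewer cells of a type and less RNA per cell cannot be told apart.

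The upstream sequences are shown first, since all 7 genes were at their highest in WT M1 cells and their starts lie in a single cluster. All 7 members had an entry in the RefSeq promoter table of build GRCm38.p6. The ISRE core GAAANNGAA, read on either strand over 250 bases before and 50 after the start, was found at the 3 long genes, *Slfn5*, *Slfn8* and *Slfn9*, and at none of the other 4. It occurs in 8.56% of all 32851 promoters of that length. The 250 bases that end just before the start are printed for these 3 genes, with the ISRE core in capitals. *Slfn8* has 2 annotated starts that share the same core, and the upstream one is shown.
Slfn5, chr11:82951852-82952101, plus strand: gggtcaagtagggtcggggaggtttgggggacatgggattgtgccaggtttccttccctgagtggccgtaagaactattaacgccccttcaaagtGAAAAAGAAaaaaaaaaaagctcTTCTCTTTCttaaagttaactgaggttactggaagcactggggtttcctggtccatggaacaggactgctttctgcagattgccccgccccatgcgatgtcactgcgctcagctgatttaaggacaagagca
Slfn9, chr11:82991831-82992080, minus strand: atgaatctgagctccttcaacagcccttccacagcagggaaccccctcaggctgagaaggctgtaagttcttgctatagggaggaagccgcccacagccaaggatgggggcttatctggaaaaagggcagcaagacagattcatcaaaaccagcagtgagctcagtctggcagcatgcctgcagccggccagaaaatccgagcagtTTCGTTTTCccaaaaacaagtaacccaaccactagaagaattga
Slfn8, chr11:83020811-83021060, minus strand: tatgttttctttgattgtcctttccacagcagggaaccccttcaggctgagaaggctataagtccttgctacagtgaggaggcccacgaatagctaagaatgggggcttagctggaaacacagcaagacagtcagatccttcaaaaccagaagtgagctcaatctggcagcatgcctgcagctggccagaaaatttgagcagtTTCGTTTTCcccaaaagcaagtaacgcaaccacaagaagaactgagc
*Slfn5* holds 2 matches, whose first bases lie 155 and 132 bases before the start, on opposite strands. *Slfn9* holds 1 match, 44 bases before the start, and the printed start of *Slfn8* holds 1, 47 bases before it. The *Slfn8* and *Slfn9* stretches were 80.7% identical in a global alignment, against 48.8% to 55.2% in the other pairs of members. Unrelated stretches were not aligned, so the values of the other pairs cannot be read as a likeness.

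The 4 short and intermediate genes held other letters in common. ACTTCCTGG, which contains the GGAA core of ETS-family factors on the opposite strand, was noticed on reading the sequences and then searched. It stood 74 bases before the start of *Slfn1*, 55 before *Slfn2*, 42 before *Slfn3* and 73 before *Slfn4*. In the 250 bases before the start of the 3 long genes it was not found. It occurs in 0.843% of all promoters, searched with the 50 bases after the start as well. The letters were picked from these same sequences, so the share beside them supports nothing. These windows show ACTTCCTGG in capitals.
Slfn1, chr11:83116736-83116764, plus strand: gatgtctcacACTTCCTGGagtgacatca
Slfn2, chr11:83065047-83065075, plus strand: cagggctttcACTTCCTGGagggtgacag
Slfn3, chr11:83191278-83191306, plus strand: ggatgacagaACTTCCTGGgggagggact
Slfn4, chr11:83175103-83175131, plus strand: ttccggttatACTTCCTGGagtgacgaaa
The interferon γ activation element (GAS) TTCNNNGAA was found at 0 of the 7 members and in 8.30% of all promoters. The antioxidant response element (ARE) of Nrf2, searched as TGAGNNNGC or TGACNNNGC, was found at 4 members (*Slfn3*, *Slfn5*, *Slfn8* and *Slfn9*) and in 27.8% of all promoters. An NF-κB motif was found at 2 members (*Slfn1* and *Slfn9*) and in 8.46%. No match of one motif overlapped a match of another in these windows. A match describes letters and not binding, and these windows leave out distal elements.

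In WT cells the M1 stimulus went with a higher level of every member. The difference on the log2 scale was between 3.33 for *Slfn2* and 4.02 for *Slfn9* among the 5 members above background on all arrays, and at least 6.89 for *Slfn1* and 5.88 for *Slfn4*, whose Con signals were at background. By limma's test, adjusted over all 22360 genes tested, 7 of 7 members were past 0.05 on the higher side, where 34.5% of all genes were, and the count is a description since these contrasts chose the family. Every member was also higher in KpCKO M1 cells than in KpCKO Con cells, again 7 of 7 past the test beside 24.8% of all genes. For *Slfn4* only the culture 2 KpCKO M1 array was well above background in this comparison. In culture 1 no rise was measured, and the fitted difference was 0.61 with a normexp background correction. The median member difference was 3.82 in WT and 3.55 in KpCKO cells, beside 0.13 and 0.03 over all genes, and that in WT cells stayed so with *Slfn1* and *Slfn4* at these bounds. All 7 members passed the filter on dim probes, but *Slfn1* and *Slfn4* passed it through M1 arrays alone.

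**Figure D1:**
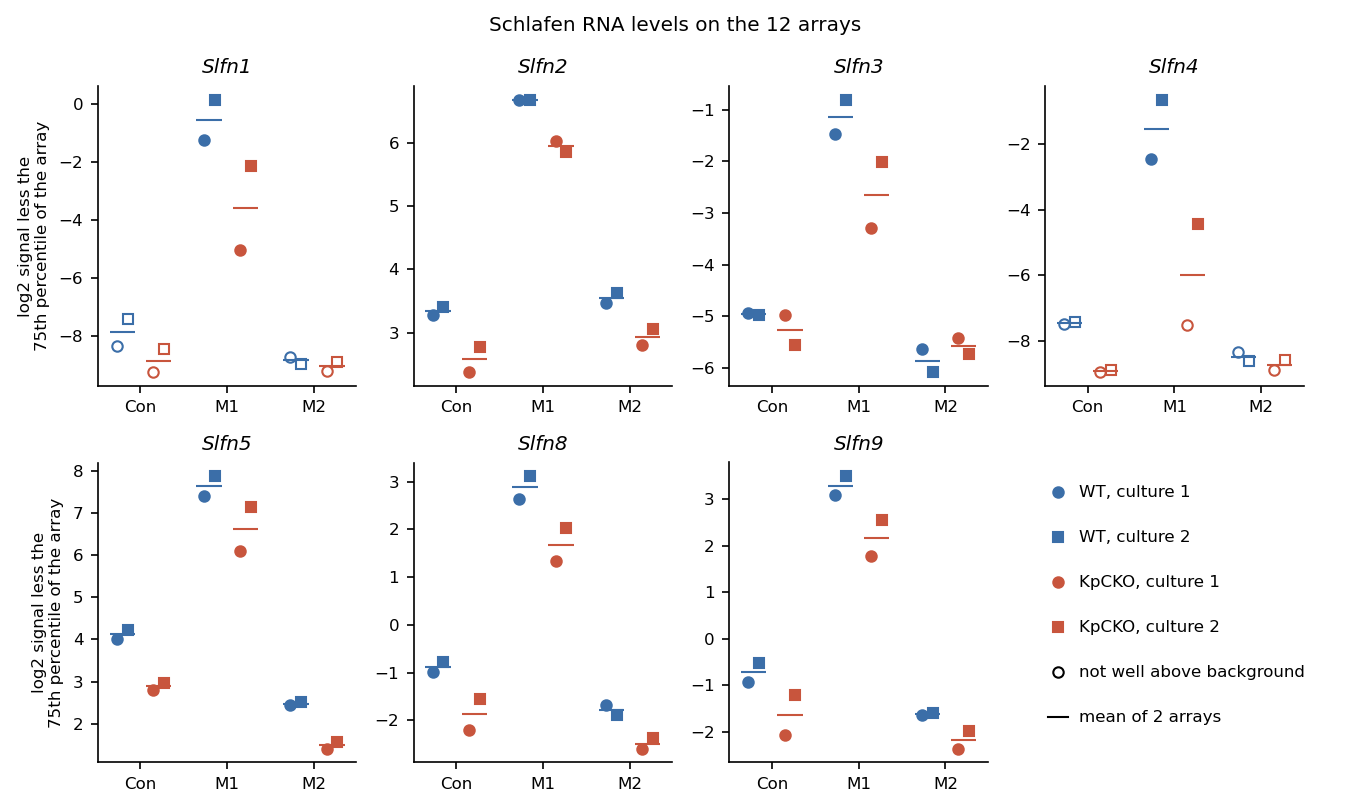
Level of each Schlafen gene on the 12 arrays, as log2 signal less the 75th percentile of the array, by state (Con, M1, M2) and genotype. Circles are culture 1, squares culture 2, bars the mean of 2 arrays and open symbols arrays on which the probe was not well above background. In the M1 state both WT arrays lie above both KpCKO arrays for all 7 genes, as they do for 30.6% of all genes.

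*Slfn4*, an intermediate family member known for its rise during macrophage activation and as a marker of myeloid suppressor cells, was above background in M1 cells only. Its level in WT M1 cells was −2.46 in culture 1 and −0.66 in culture 2. In KpCKO M1 cells it was −7.51 in culture 1, where the probe was not well above background, and −4.44 in culture 2. The WT arrays were thus the higher in both cultures, and the KpCKO arrays lay further apart from each other than the WT arrays. The level was −7.48 and −7.42 in WT Con, −8.95 and −8.89 in KpCKO Con, −8.35 and −8.61 in WT M2, and −8.87 and −8.57 in KpCKO M2 cells. The probe was not well above background on any of these 8 arrays, so their order has no meaning. In culture 2 KpCKO less WT in M1 was −3.79, and in culture 1 WT exceeded KpCKO by at least 4.60 on the log2 scale. The fitted difference of −4.42 ± 0.79 (SE, n = 2 arrays a group) takes the array at background at its signal, and has no exact size for that reason. It was −4.19 with that array at the floor and −2.22 with a normexp background correction, which lifts dim signals. WT M1 was at least 59.0-fold above WT Con, and no fold is given for KpCKO M1 against KpCKO Con, since 1 of the 2 M1 arrays was above background. In these bounds a dim signal is given, on each array, the higher of its own signal and the lowest signal of any probe well above background.

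*Slfn1*, which restrains T cell growth when overexpressed, followed a like order. In M1 cells it measured −1.26 in culture 1 and 0.14 in culture 2 for WT, and −5.06 and −2.15 for KpCKO. Both WT arrays exceeded both KpCKO arrays, and culture 1 had the lower level in each genotype. On the 8 Con and M2 arrays the probe was not well above background, at −9.26 to −7.41. WT M1 was at least 118-fold above WT Con, and KpCKO M1 at least 22.4-fold above KpCKO Con. The genotype difference in M1 was −3.80 in culture 1 and −2.28 in culture 2, and −3.04 ± 0.65 in the fit. It was −2.23 with normexp, beside −2.22 for *Slfn4*, and between −4.17 and −1.91 with 1 array left out, the smaller size being that without the first KpCKO M1 array.

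*Slfn3*, which is linked to differentiation of the intestinal epithelium, is the remaining intermediate member and was well above background on all 12 arrays. It read −4.94 and −4.98 in WT Con, −4.98 and −5.56 in KpCKO Con, −1.47 and −0.81 in WT cells given M1, and −3.29 and −2.02 in KpCKO cells given M1. In M2 cells it was −5.64 and −6.09 in WT and −5.42 and −5.73 in KpCKO. The M1 arrays stood above all others, the genotypes did not overlap in M1, and they overlapped in M2. The M2 difference of 0.29 turned to −0.69 with normexp and to −0.04 without the second WT M2 array. The M1 difference between the genotypes was −1.52 ± 0.44, and *Slfn3* was the member that did not pass the test there.

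*Slfn2*, the other short member, keeps lymphocytes and monocytes quiescent, and its loss in *elektra* mice leaves them prone to infection. Its level was 3.28 and 3.40 in WT Con and 2.38 and 2.78 in KpCKO Con cells. It was 6.68 and 6.67 in WT M1 and 6.03 and 5.86 in KpCKO M1 cells, and 3.48 and 3.63 in WT M2 and 2.80 and 3.05 in KpCKO M2 cells. WT was above KpCKO in each state without overlap, and KpCKO less WT was −0.76 in Con, −0.73 in M1 and −0.62 in M2, each ± 0.15 (SE). The rise with M1 was 10.1-fold in WT and 10.3-fold in KpCKO cells, a difference of responses of 0.03 ± 0.21 on the log2 scale. *Slfn2* was the member with no lower mean in M2 than in Con cells, by 0.21 in WT and 0.35 in KpCKO.

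*Slfn5*, a nuclear long member whose human counterpart restricts herpes simplex virus, was lower in M2 than in Con cells in both genotypes. Its brighter probe read 4.02 and 4.22 in WT Con, 2.79 and 2.97 in KpCKO Con, 7.39 and 7.87 in WT cells given M1, and 6.09 and 7.14 in KpCKO cells given M1. In M2 cells it read 2.44 and 2.51 in WT and 1.40 and 1.57 in KpCKO. No 2 groups overlapped: the order was WT M1, KpCKO M1, WT Con, KpCKO Con, WT M2 and KpCKO M2. M2 was 3.11-fold below Con in WT and 2.63-fold below it in KpCKO cells. KpCKO less WT was −1.23 in Con, −1.02 in M1 and −0.99 in M2 on the log2 scale (each ± 0.24). The dimmer probe gave mean differences of the same sign in all 7 comparisons, among them −1.43 in Con, −1.43 in M1 and −1.15 in M2 for the genotypes, and −1.81 for M2 against Con in WT.

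*Slfn8* and *Slfn9* encode closely related long proteins, and loss of *Slfn8* is known to lessen experimental autoimmune encephalomyelitis. The sequences of their probes were not used here, so signal shared between these near copies cannot be told apart. *Slfn8* read −0.98 and −0.77 in WT Con, −2.20 and −1.56 in KpCKO Con, 2.64 and 3.12 in WT cells given M1, 1.33 and 2.03 in KpCKO cells given M1, −1.68 and −1.88 in WT cells given IL-4, and −2.60 and −2.38 in KpCKO cells given IL-4. *Slfn9* read −0.93 and −0.52, −2.07 and −1.21, 3.08 and 3.50, 1.78 and 2.55, −1.63 and −1.59, and −2.37 and −1.98 in the same groups. For both genes WT was above KpCKO in each state without overlap, while KpCKO Con overlapped WT M2, and for *Slfn9* KpCKO M2 as well. The genotype gap in M1 was −1.20 ± 0.22 for *Slfn8* and −1.13 ± 0.20 for *Slfn9*, and their levels correlated at r = 0.998 over the 12 arrays, which share genotype and stimulus.

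The comparison of the genotypes addresses whether loss of *Keap1* goes with a different level of these genes in each state. In M1 cells the median member was at −1.20, beside −0.09 over all genes. Both WT arrays were above both KpCKO arrays for 7 of 7 members, beside 30.6% of all genes. By limma's test 6 of 7 members, all but *Slfn3*, were past 0.05 on the lower side, beside 8.59% of all genes, and 7 of 7 were under an unadjusted 0.05, beside 20%. The family was chosen on these values, so the counts describe them and support nothing. In Con cells 0 of 7 members passed limma's test, beside 0.827% of all genes on the lower side, while 4 were under an unadjusted 0.05 on that side, beside 6.6% of all genes. The 5 members above background there lay between −1.23 and −0.31. Both WT arrays were above both KpCKO arrays for 7 of 7 members in Con, beside 17.7% of all genes. In M2 they were for 4 of 7, beside 17.2%. The Con count includes *Slfn1* and *Slfn4*, whose signals were at background there, so their order has no meaning. It also includes *Slfn3*, whose closest Con arrays were nearly equal, at −4.977 (WT, culture 2) and −4.982 (KpCKO, culture 1). In M2 cells 0 of 7 passed limma's test, beside 0.644% of all genes, with 4 under an unadjusted 0.05 beside 6.04%, and the 5 members above background lay between −0.99 and 0.29. The methods' t-test, adjusted in the same way, called 0 members in each of these 3 states, and at an unadjusted 0.05 it passed 2 in Con, 1 in M1 and 2 in M2, beside 3.23%, 6.91% and 3.43% of the genes it tested on the lower side. The M1 count rested on single arrays: it was 0 without the second WT M1 array, 1 without the first KpCKO M1 array and 3 without the first WT M1 array, and it was 2 without the culture term.

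**Figure D2:**
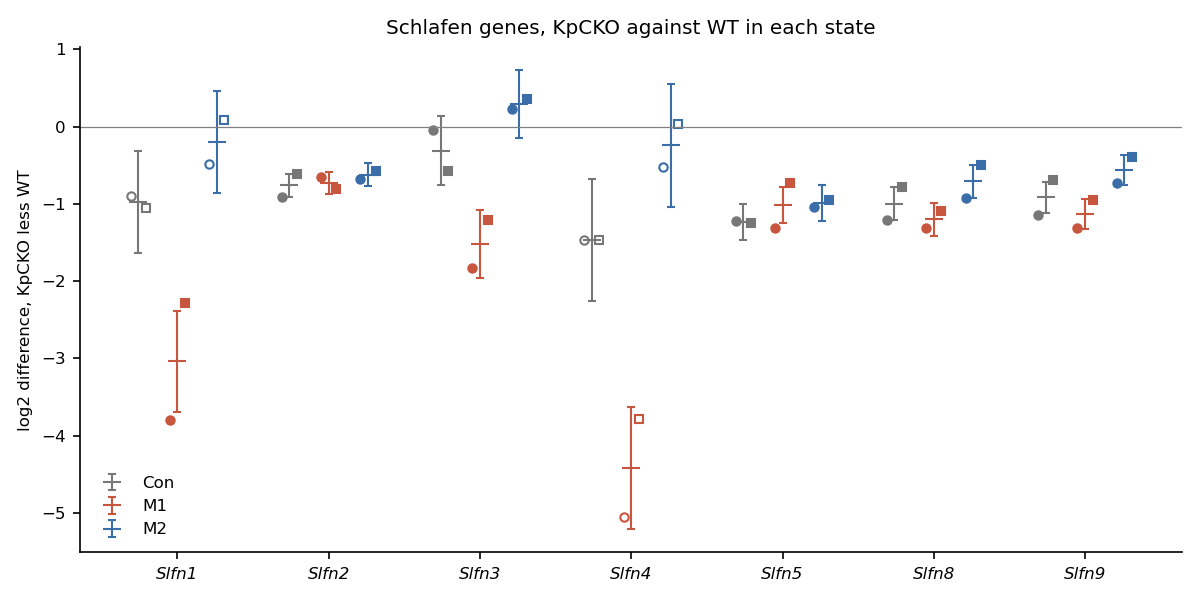
Log2 difference, KpCKO less WT, of each Schlafen gene in Con, M1 and M2 cells. Ticks with bars are the fitted difference ± SE, circles and squares the differences in culture 1 and 2, and open symbols mark comparisons in which an array was not well above background. In M1 *Slfn1* is at −3.04 and *Slfn4*, with a KpCKO array at background, at −4.42, and in M2 *Slfn3* is at 0.29, a value that is −0.69 with normexp.

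The response to M1 was set side by side for the genotypes, which share no arrays. For *Slfn2* and the long genes the difference was within its error: KpCKO less WT was 0.03 ± 0.21 for *Slfn2*, 0.22 ± 0.33 for *Slfn5*, −0.20 ± 0.31 for *Slfn8* and −0.21 ± 0.28 for *Slfn9*. *Slfn3* stood at −1.21 ± 0.63, with −1.78 in culture 1 and −0.63 in culture 2. For *Slfn1* and *Slfn4* the Con level has only a bound, and the fitted values of −2.06 ± 0.93 and −2.95 ± 1.12 depend on signals at background. By limma's test of the difference itself 0 of 7 members passed, beside 0.0716% of all genes in either direction, with 1 member, *Slfn4*, under an unadjusted 0.05 beside 16.4% of all genes. For M2 the difference of responses was past limma's test for 0 of 7 members, beside 0.00894% of all genes, and 0 members were under an unadjusted 0.05, beside 2.01%. With errors of this size a different response could not be told from an equal one for any of the 7 members.

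**Figure D3:**
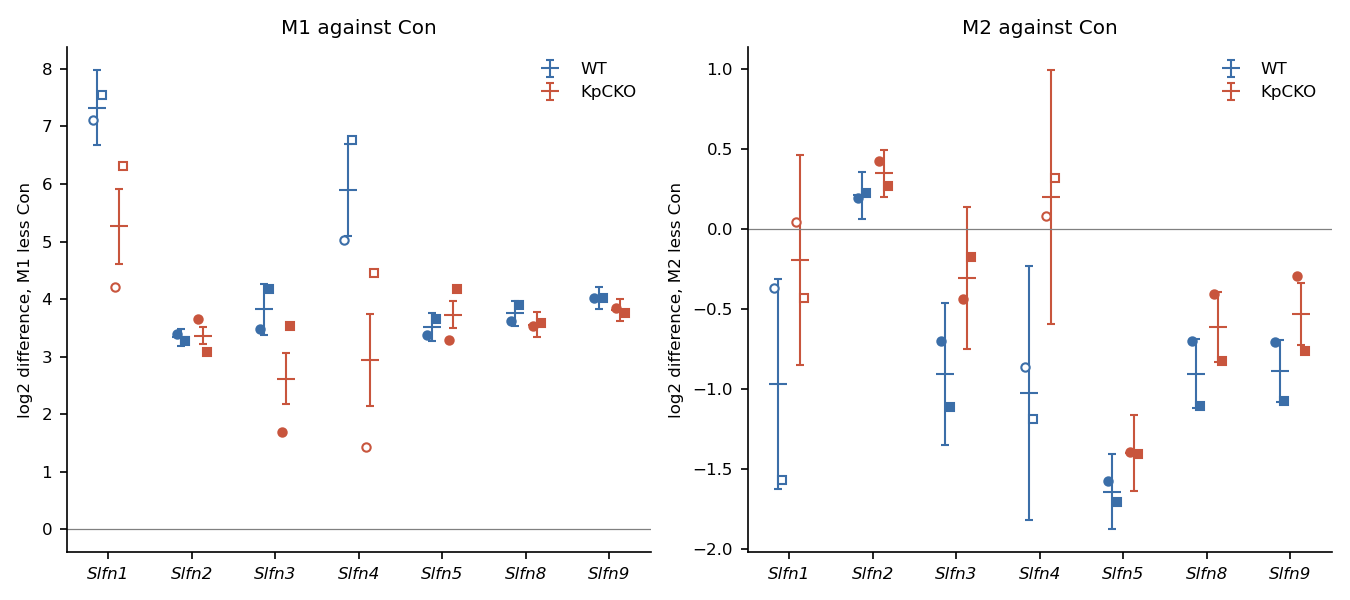
Log2 difference from Con of each Schlafen gene in M1 cells (left) and M2 cells (right), with WT in blue and KpCKO in red. Ticks with bars are fitted differences ± SE, circles and squares culture 1 and 2, and open symbols mark comparisons with an array not well above background. In M1 the long genes and *Slfn2* sit between 3.33 and 4.02 in both genotypes, and in M2 *Slfn5* is lowest at −1.64 and −1.40.

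The long genes were lower with IL-4 than in Con cells in both WT cultures. *Slfn5* differed by −1.58 in culture 1 and −1.70 in culture 2, *Slfn8* by −0.70 in culture 1 and −1.11 in culture 2, and *Slfn9* by −0.70 and −1.07. In KpCKO cells *Slfn8* stood at −0.61 ± 0.22 and *Slfn9* at −0.53 ± 0.20. By limma's test 3 of 7 members, *Slfn5*, *Slfn8* and *Slfn9*, were past 0.05 on the lower side in WT cells, beside 8.21% of all genes, and 1 of 7, *Slfn5*, in KpCKO cells, beside 4.53%. These counts too come from values that chose the family and support nothing. The WT count was 1 without the second WT Con array, and 0 without the first WT Con or without the second WT M2 array. The KpCKO count was 0 when any 1 of its 4 arrays was left out.

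The Schlafen genes were set beside the interferon pathway, whose lists were fixed with earlier results of these data known. *Ifnb1*, the gene of interferon β, had signal at background in the Con and M2 states and rose at least 1308-fold with M1 in WT cells and at least 684-fold in KpCKO cells (limma, adjusted p = 7.62e-06 and 1.74e-05). Its M1 level did not differ past the test between the genotypes, at −1.23 ± 0.48 (limma, adjusted p = 0.121). With M1 in WT cells, 4 of 7 receptor and kinase genes rose and 2 fell. There 7 of 8 transcription factor genes and 3 of 3 feedback brakes rose. By the same test 7721 of all 22360 genes rose and 6409 fell. Of the 7 receptor and kinase genes, *Jak2*, a kinase of the IFNγ receptor, was lower in KpCKO M1 cells, at −1.21 (limma, adjusted p = 0.0117), and the other 6 did not pass. Of the 8 transcription factor genes, 2 were lower in KpCKO M1 cells. These were *Irf7*, the amplifier of type I interferon, at −1.90 (limma, adjusted p = 0.0405), and *Irf8*, a macrophage lineage factor, at −0.54 (limma, adjusted p = 0.0342). Of the 3 brakes, *Usp18*, which blocks the type I receptor, was lower at −2.33 (limma, adjusted p = 0.0305). Of all genes, 8.59% were lower in KpCKO M1 cells.

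The list of interferon targets had 22 genes, of which 19 had a matched probe and were tested. All 19 rose with M1 in each genotype, beside 34.5% of all genes in WT and 24.8% in KpCKO cells. Their median was 5.77 in WT and 6.36 in KpCKO cells. The median genotype difference in M1 cells was −1.26. There 6 of 19 were lower in KpCKO than in WT, beside 8.59% of all genes, and 0 higher. Among them were *Herc6*, an ISG15 ligase, at −1.26 (limma, adjusted p = 0.0193), *Isg15*, the ubiquitin-like modifier, at −1.37 (adjusted p = 0.0428), and *Oas1a*, of the oligoadenylate synthetase family, at −1.39 (adjusted p = 0.0297). In Con cells 6 of 19 targets were lower in KpCKO, beside 0.827% of all genes, with a median of −1.57 over the 19. The 6 included *Oasl1* at −2.57 (limma, adjusted p = 0.0197) and *Irgm1*, an immunity-related GTPase, at −0.68 (adjusted p = 0.0391). In M2 cells 0 of 19 passed limma's test, beside 0.644% of all genes on the lower side, at a median of −0.84. With IL-4, 9 of 19 targets, such as *Ifit3* by 3.27 (limma, adjusted p = 0.00770), fell in WT cells, beside 8.21% of all genes. In KpCKO cells 1, *Ifit3*, fell, beside 4.53%. These comparisons share arrays with those of the members.

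**Figure D4:**
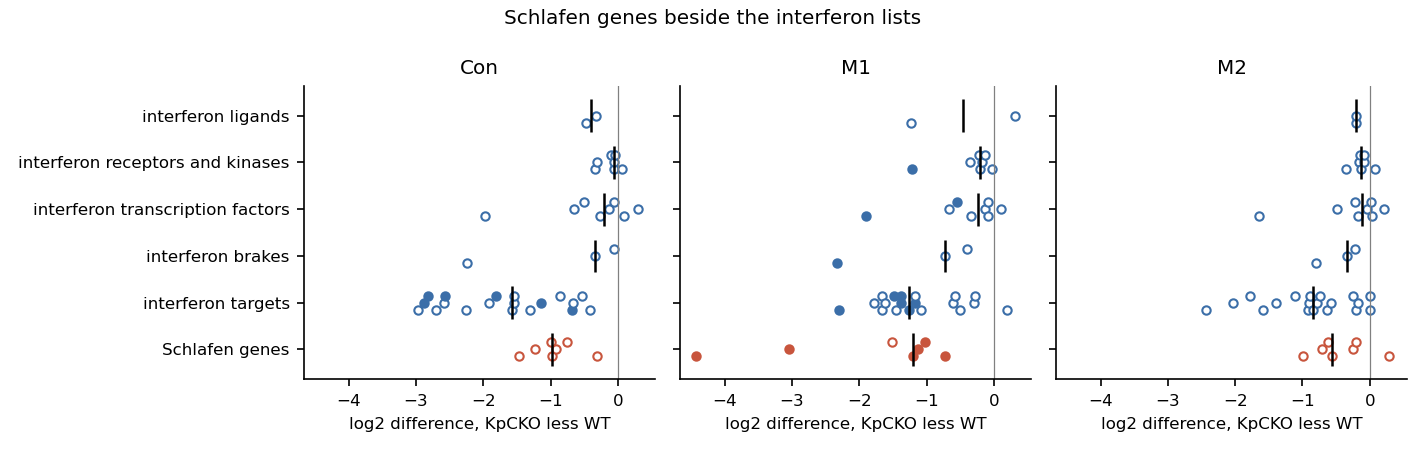
Log2 difference, KpCKO less WT, of the 7 Schlafen genes (red) and of the genes of 5 interferon lists (blue) in Con, M1 and M2 cells. Each point is a gene, filled where it passed limma's adjusted test, and the black line is the median of its list. In M1 the Schlafen median is −1.20 and the interferon target median −1.26. The other medians are −0.73 for brakes, −0.46 for ligands, −0.24 for transcription factors and −0.21 for receptors and kinases.

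The 3 named genes most alike in level to each member measured on at least 6 arrays were taken by Pearson's r over the 12 arrays among 22083 genes. A transcript without a gene symbol stood above the first of them for *Slfn5* and above the second for *Slfn2* and *Slfn8*. For *Slfn8* they were *Dhx58* (r = 0.997), *Xaf1* (0.996) and *Isg15* (0.996), and for *Slfn9* the same names in another order, *Isg15* (0.998), *Xaf1* (0.996) and *Dhx58* (0.996). For *Slfn5* they were *Il15* (0.994), *Arid4a* (0.992) and *Ifit1* (0.992). For *Slfn2* they were *Lcp2* (0.998), *Ythdc1* (0.994) and *Il1rn* (0.994), and for *Slfn3* *Armc8* (0.996), *Rnf139* (0.994) and *Rnf34* (0.994). By Spearman's rho the order differs, with *Arid4a* 76th for *Slfn5*, *Rnf139* 91st for *Slfn3* and *Ythdc1* 52nd for *Slfn2*. In the 10 pairs of members above background on all 12 arrays r was between 0.924, for *Slfn2* and *Slfn3*, and 0.998. These values describe levels that all move with the same 3 stimuli.

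The genes that lie next to the Schlafen cluster were read as neighbours. In the reference order *Slfn5* is followed by *Slfn9*, *Slfn8*, *Slfn2*, *Slfn1*, *Slfn4* and *Slfn3*. Of 5 measured genes on each side, 6 of 10 rose and 3 fell with M1 in WT cells. Of all 22360 genes, 7721 rose and 6409 fell by the same test. The neighbours differed from −0.87 for *Rad51d*, a recombination gene, to 3.69 for *Unc45b*, a myosin chaperone that lies just before *Slfn5*. *Unc45b* rose by 3.69 ± 0.70 (limma, adjusted p = 0.00324) in WT M1 cells, and was above background on 1 of 2 WT Con arrays. Between the genotypes in M1, 2 of 10 neighbours were lower in KpCKO cells, beside 8.59% of all genes. These were *AI662270*, the nearest measured gene after *Slfn3*, at −0.74 (limma, adjusted p = 0.0121), and *Ap2b1*, a clathrin adaptor subunit, at −0.71 (adjusted p = 0.0410). *Unc45b* had the lowest M1 difference of the 10 neighbours, at −1.76 ± 0.70, and did not pass (limma, adjusted p = 0.131). Of the neighbours 0 passed limma's test between the genotypes in Con or M2 cells. *Slfn14*, a further family member, and *Slfnl1*, a Schlafen-like gene, were not well above background on any of the 12 arrays, and no probe was matched to *Slfn10-ps*.

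**Figure D5:**
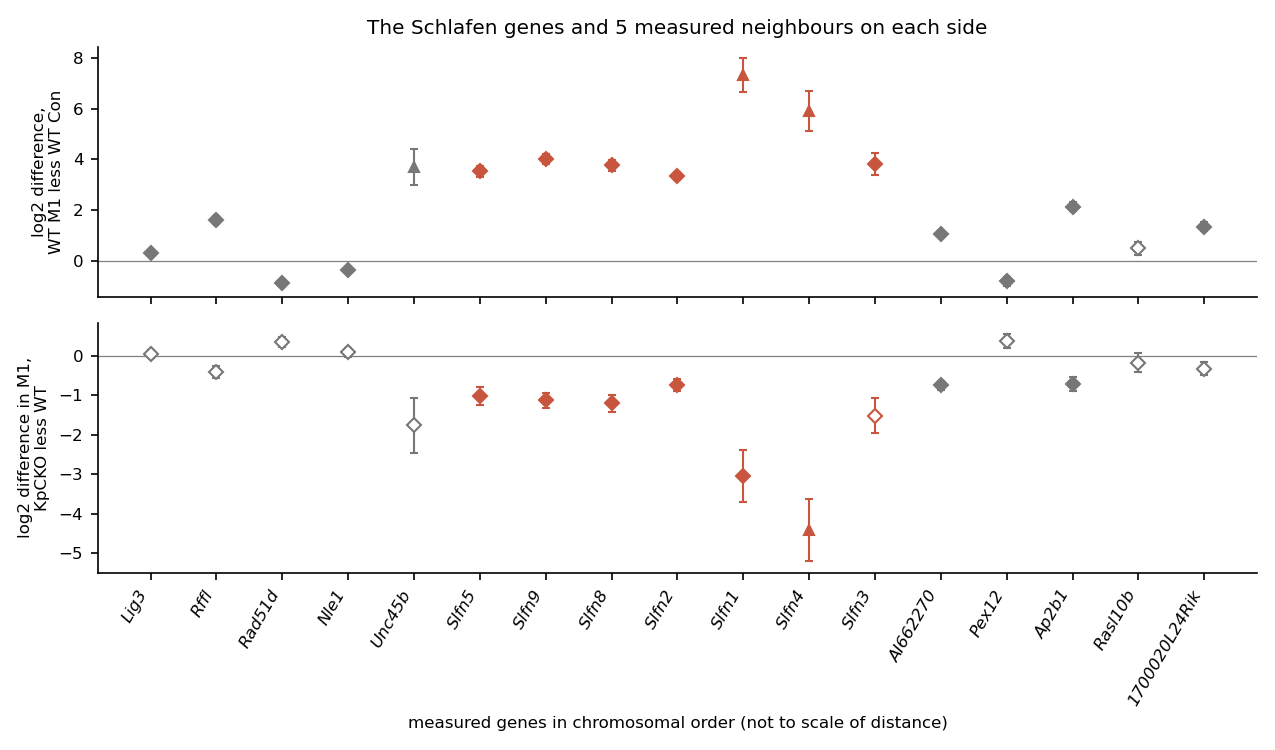
Fitted log2 difference ± SE of the 7 Schlafen genes (red) and of 5 measured genes on each side (grey), in chromosomal order without scale, for WT M1 less WT Con (top) and KpCKO less WT in M1 (bottom). Filled points passed limma's adjusted test, and triangles mark comparisons with an array not well above background. *Slfn1* and *Slfn4*, which are adjacent among the measured genes, are triangles at the top, where their differences have only the lower bounds 6.89 and 5.88, and at the bottom *Slfn1* is at −3.04 and *Slfn4* again a triangle.

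Values of the whole series bear on these differences as follows. *Keap1* was lower in KpCKO cells, at −1.46 for Con, −1.71 for M1 and −1.81 for M2 on the log2 scale (limma, adjusted p = 0.0335, 0.00769 and 0.0161), and *Nqo1*, a classical Nrf2 target, was higher by 3.23, 3.50 and 3.52. Of 7 macrophage markers 6 had a matched probe, and all 6 were well above background on all 12 arrays. Their summed level was lower in KpCKO than in WT cells, at 375 to 425 against 507 to 550 in Con, 496 to 562 against 665 to 804 in M1, and 406 to 441 against 473 to 524 in M2, in units of the 75th percentile. The sum includes *Lyz2*, the lysozyme M gene, from whose locus KpCKO mice express Cre. The part of *Lyz2* in the lower sum was not tested. In M1 cells 3 of the 6 markers, *Adgre1*, *Itgam* and *Fcgr1*, were lower in KpCKO, beside 8.59% of all genes. Of the 6 differences in M1, 5 were negative, and *Csf1r* stood at 0.11. In Con and M2 cells 0 of 6 markers passed limma's test. T cell markers summed to 1.66 to 3.26 in M1 and 0.090 to 0.278 elsewhere. Of these 7 markers 2 were well above background on all 12 arrays and 1, *Cd3d*, on none. Most of the M1 sum was *Lck*, which rose with M1 by 7.61 in WT and 6.13 in KpCKO cells (limma, adjusted p = 5.22e-06 and 1.58e-05), and the other 6 genes summed to 0.104 to 0.580 in M1 and 0.073 to 0.264 elsewhere, with *Cd2* and *Cd8a* not above background on any M1 array. Of 11 neutrophil markers 10 had a matched probe, 7 of them well above background on all 12 arrays and 1, *Elane*, on none. Their sum ran from 13.2 to 18.3 in culture 1 and from 6.18 to 10.1 in culture 2. B cell, NK cell and dendritic cell markers summed to at most 2.32. Well above background on all 12 arrays were 2 of 5 B cell, 2 of 5 NK cell and 3 of 5 dendritic cell markers. *Ms4a1*, *Pax5*, *Gzma* and *Prf1* were so on none. The 75th percentile used for scaling ranged from 548 to 757 for WT M1, from 787 to 906 for KpCKO M1 and from 966 to 1166 for the other 8 arrays. Quantile normalization shifted the median of all genes for KpCKO against WT in M1 by 0.09. The part of the marker and scaling differences in the Schlafen differences was not tested.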

How the data were processed

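RNA of 12 BMDM samples in 6 groups of 2 was hybridized to 1-colour Agilent arrays. Spots were read with Agilent Feature Extraction 10.7.3.1, per the submitters' processing notes, and the authors deposited background-subtracted intensities, not scaled between arrays, with flags (other) for spots well above background, saturated or outlying. They also deposited a matrix of log2 values, which on 40749 shared probes equal the log2 intensity less the 75th percentile of its array, centred on each probe's median.

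Here outlier spots were left out, spots of a probe averaged, and log2 intensities set relative to the 75th percentile of the array. Accessions matched 26690 of 41174 probes to symbols, and a gene was read by its brightest probe. Of 32301 genes or transcripts, 22373 exceeded background clearly on both arrays of 1 or more groups and 22360 could be tested. limma 3.58.1 in R 4.3.3 fitted the 6 groups plus culture on all 12 arrays (5 residual degrees of freedom), with Benjamini-Hochberg adjustment over all genes at 0.05. Each culture held 1 mouse of each genotype, as the description of the series states. The deviations of same-culture arrays from their group means correlated between 0.162 and 0.597 in 15 pairs of groups (22090 genes). The script was tested on simulated data. Python 3.11.15, pandas 2.3.3 and matplotlib 3.10.9 made tables and plots. Promoters came from the RefSeq table of GRCm38.p6; the array design uses another build, so no probe coordinates are given.

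The members, lists and tests were chosen with earlier results of these data known. Genes named are the 7 members, examples of the lists, 5 measured genes on each side of the cluster and the 3 most alike to each member. ACTTCCTGG was added after the promoters were read. Alternatives were normexp with an offset of 50, quantile normalization, the authors' matrix, other filters, a floor, the mean of a gene's probes, no culture term, mouse as a random block, fits of the compared stimuli alone, the methods' t-test, and leaving out each array.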

Additional observations from a re-analysis of the deposited data

Results flagged for a closer look

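*Slfn3* stood apart by the direction of its genotype difference. KpCKO less WT was −1.52 in M1 cells, negative in both cultures, and 0.29 in M2 cells, positive in both cultures (0.22 and 0.36). The M2 value turned to −0.69 with a normexp background correction and to −0.04 without the second WT M2 array, so its direction depends on the processing. The difference between the M1 and the M2 value was not tested, and neither value passed limma's adjusted test on its own.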

How the results depend on the processing

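Each count of members past the test was recomputed under every alternative. For M1 against Con in WT it was 7 and stayed at 7 with each array left out, and was 4 by the methods' t-test. For M1 against Con in KpCKO it was 7, between 6 and 7 with an array left out, and 0 by the t-test (4 at an unadjusted 0.05). For M2 against Con in WT it was 3, and was 1 with normexp, with no filter on dim probes and with no replicate block, 5 with only the stimuli compared, 0 by the t-test, and 0 to 3 with an array left out. For M2 against Con in KpCKO it was 1, and was 0 with no replicate block, by the t-test and with any of 4 arrays left out. For KpCKO against WT in Con it was 0, and was 1 with quantile normalization (*Slfn5*), 3 with the filter on all 12 arrays and 2 with the floor. For KpCKO against WT in M1 it was 6, and was 2 with no replicate block (*Slfn2* and *Slfn4*), 2 with only the stimuli compared, 0 by the t-test, and 0 to 6 with an array left out. For KpCKO against WT in M2 it was 0, and 1 with only the stimuli compared. Without the pairing by culture, fewer members passed in M1 between the genotypes (2 in place of 6). In that comparison *Slfn2*, *Slfn4*, *Slfn8* and *Slfn9* passed with normexp, and *Slfn1*, *Slfn4*, *Slfn8* and *Slfn9* with quantile normalization. With no filter on dim probes *Slfn5* no longer passed there. With the filter on all 12 arrays *Slfn3* passed there, and *Slfn1* and *Slfn4* were not tested. The authors' matrix, the mean of a gene's probes and the mouse as a random block left the counts within 1.5 times. The cause of these moves was not tested.

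No called member difference changed sign under any alternative. Of 670 single values with all arrays kept, 626 moved by less than the spread between replicates and 44 by more. The dim probes moved most: with normexp the log2 difference for M1 against Con in WT was 3.77 for *Slfn1* and 2.74 for *Slfn4*, and in KpCKO 1.57 and 0.61. Quantile normalization shifted the median of all genes by −0.21 for M1 against Con in WT, and by 0.10 for the difference of the M1 response. Signal over background limits *Slfn1* and *Slfn4*, which were at background in all Con and M2 samples.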
